A study of Mus musculus with 5 samples.

Results

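The Dlx genes encode homeodomain transcription factors related to Drosophila Distal-less. The mouse genome holds 6 of them, arranged as 3 pairs whose members point toward each other: Dlx1 with Dlx2 on chromosome 2, Dlx6 with Dlx5 on chromosome 6, and Dlx3 with Dlx4 on chromosome 11. The 6 genes were taken by name, and a gene was counted as having a RING1B peak when a peak shared a base with the gene body or came within 5000 bases of the gene start, using the GENCODE vM1 annotation of NCBIM37 (mm9). They are 6 of the 37252 annotated genes, and of the 22350 protein-coding genes, counted without the Y and mitochondrial chromosomes.

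RING1B is the ubiquitin ligase of Polycomb Repressive Complex 1 (PRC1), and was mapped by ChIP-Seq on micrococcal nuclease-treated, crosslinked chromatin of mouse embryonic fibroblasts (MEFs). All cells descend from MEFs that carry floxed alleles of EED, a core subunit of PRC2, and 1 library was made per group. The control is the parental line, and the other groups were transduced with lentivirus for human EZHIP or for histone H3.3 K27M, both inhibitors of PRC2 expressed from an EF1a promoter. The remaining libraries, of H3.3 K27R cells and of a line with EED deleted, were not analysed here. The lists give peak positions alone, with 821 control, 311 EZHIP and 286 H3.3 K27M peaks. The study itself reported no change in the number and general distribution of RING1B with either inhibitor. The counts of these lists differ from that statement, and the reason was not tested. The narrowest peak measured 1199 bases in the control list and 399 bases in each of the others, although the methods of the study give a single minimum peak size for RING1B that exceeds 399 bases. The depth behind them is unknown and no replicate measures the spread, so the values compare single libraries as the caller scored them and carry no p-value. RING1B on fewer cells and less RING1B per cell cannot be told apart.

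Dlx proteins pattern the pharyngeal arches, where nested expression of the pairs sets the identity of upper and lower jaw, and Dlx1, Dlx2, Dlx5 and Dlx6 direct the development of forebrain GABA neurons. Members of a pair share enhancers in the span between them. In cells where such developmental regulators are silent, PRC2 methylates histone H3 at lysine 27 (H3K27me3) over CpG-rich gene starts, and PRC1 is recruited there in part through that mark.

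The starts of 3 Dlx genes are shown because they cover different outcomes: Dlx2 had a control peak alone, Dlx4 a control and an H3.3 K27M peak, and Dlx5 none. Each sequence runs from 250 bases before to 50 bases after the annotated start, 5′ to 3′ on the strand of the gene, with each CG dinucleotide in capitals. The positions in NCBIM37 are chr2:71384762-71385061 (minus strand) for Dlx2, chr11:95007528-95007827 (minus strand) for Dlx4 and chr6:6832036-6832335 (minus strand) for Dlx5.
Dlx2: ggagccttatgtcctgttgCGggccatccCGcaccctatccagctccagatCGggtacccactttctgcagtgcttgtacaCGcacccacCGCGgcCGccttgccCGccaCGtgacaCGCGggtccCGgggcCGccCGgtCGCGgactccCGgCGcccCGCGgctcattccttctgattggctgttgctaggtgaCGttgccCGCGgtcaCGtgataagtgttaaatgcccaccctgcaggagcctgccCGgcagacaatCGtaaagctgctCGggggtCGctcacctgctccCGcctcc
Dlx4: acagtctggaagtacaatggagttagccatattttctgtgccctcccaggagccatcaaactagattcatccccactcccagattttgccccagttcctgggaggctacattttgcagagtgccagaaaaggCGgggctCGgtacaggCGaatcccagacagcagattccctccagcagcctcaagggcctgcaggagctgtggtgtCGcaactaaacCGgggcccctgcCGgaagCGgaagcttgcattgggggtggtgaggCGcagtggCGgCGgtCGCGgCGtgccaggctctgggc
Dlx5: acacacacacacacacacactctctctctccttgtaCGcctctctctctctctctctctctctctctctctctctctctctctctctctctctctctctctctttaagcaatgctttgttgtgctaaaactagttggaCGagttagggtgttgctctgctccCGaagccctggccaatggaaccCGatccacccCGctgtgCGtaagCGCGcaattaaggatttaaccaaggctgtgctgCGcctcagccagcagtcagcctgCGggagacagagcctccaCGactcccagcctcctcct
CG occurred 29 times at Dlx2, 13 times at Dlx4 and 11 times at Dlx5, against a median of 11 over 22350 protein-coding gene starts (quartiles 3 and 23), of which 95.1% held at least 1. Searching CG finds the same positions on either strand. The Dlx2 window thus had more CG than 84.9% of gene starts, the Dlx4 window more than 52.3% and the Dlx5 window more than 48.1%. All 300 bases of the Dlx4 window lay inside a peak in the control and H3.3 K27M libraries and none in the EZHIP library. The Dlx2 window had 238 of its bases in the control peak and none in the other lists, and the Dlx5 window had none in any list.

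Of the 6 Dlx genes, 5 had a peak in the control list, 2 in the H3.3 K27M list and 1 in the EZHIP list. By the same rule, 3.16% of all genes and 3.81% of protein-coding genes had a peak in the control, 1.09% and 1.21% in the H3.3 K27M list, and 1.12% and 1.32% in the EZHIP list. Dlx6 was the member found in all 3 lists. Dlx4 had a control and an H3.3 K27M peak. Dlx1, Dlx2 and Dlx3 had a control peak alone, and Dlx5 had no peak in any list. Every gene with a peak had its annotated start inside it, so the number of starts inside a peak was likewise 5, 2 and 1, beside 2.27% of all gene starts in the control, 0.65% in the H3.3 K27M list and 0.518% in the EZHIP list.

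The same outcomes can be read over all protein-coding genes. Of the 851 with a control peak, 171 (20.1%) also had a peak in both other lists, as Dlx6 did. A further 72 (8.46%) had one in the H3.3 K27M list without the EZHIP list, as Dlx4 did, and 78 (9.17%) had one in the EZHIP list without the H3.3 K27M list, an outcome that no Dlx gene showed. The control list alone held a peak at 530 (62.3%), as at Dlx1, Dlx2 and Dlx3.

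**Figure D1:**
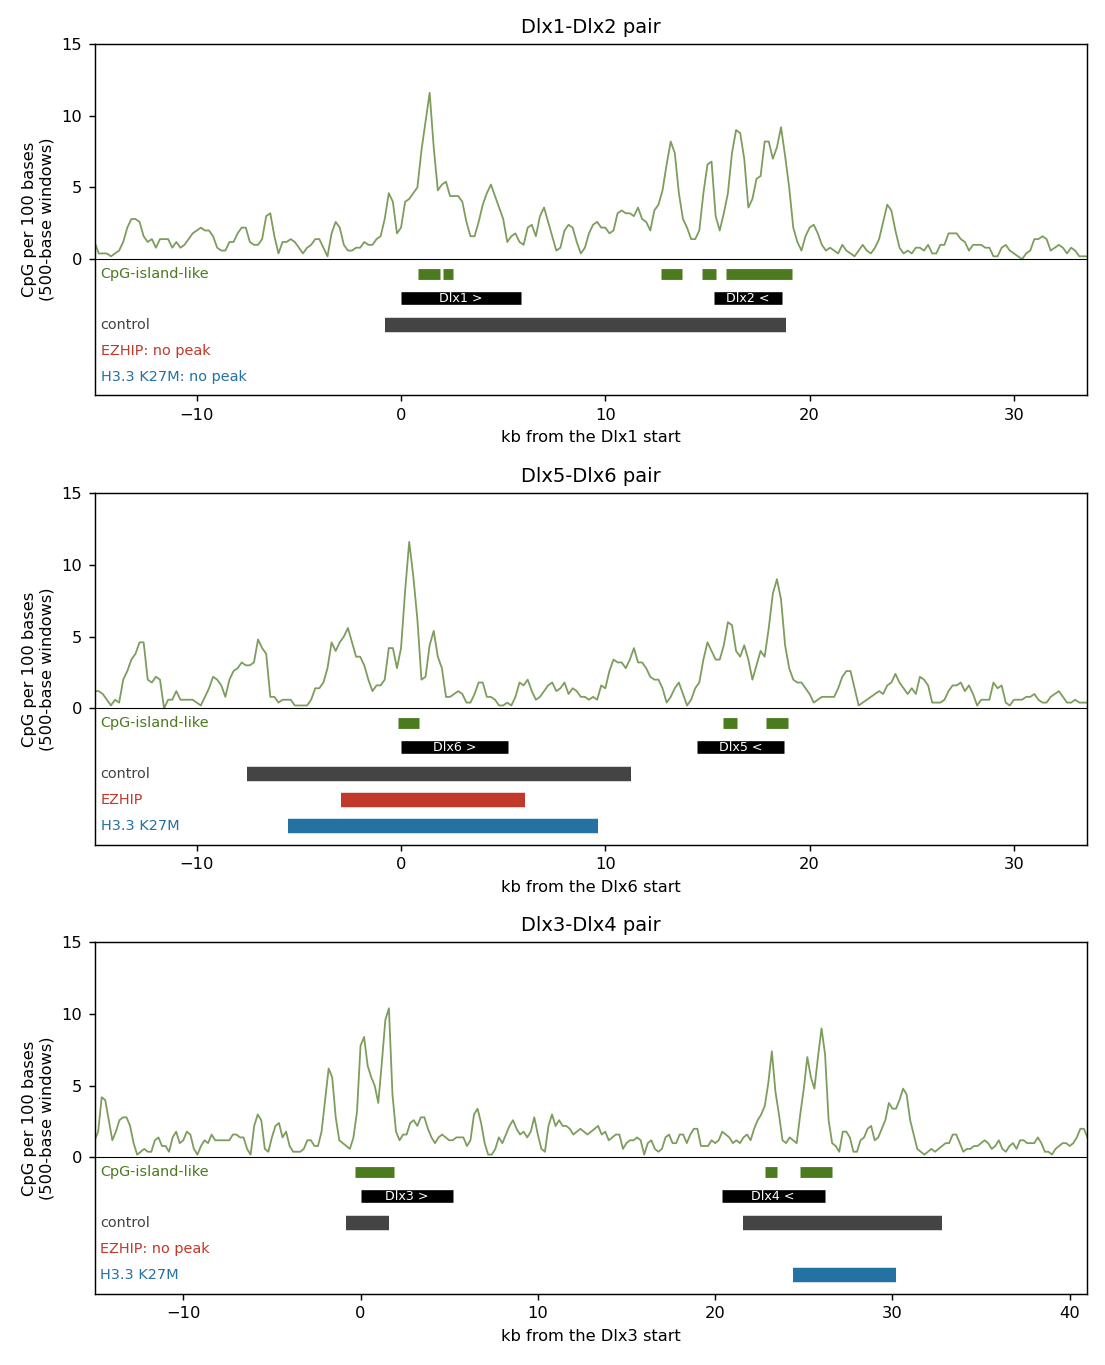
RING1B peaks at the 3 Dlx pairs, with distance in kb from the start of the leftmost gene on the horizontal axis and CpG per 100 bases in windows of 500 bases on the vertical axis. Bars below the curve mark CpG-island-like sequence (green), gene bodies with their direction (black) and the peaks of the control (grey), EZHIP (red) and H3.3 K27M (blue) lists, and show the Dlx1-Dlx2 pair with a control peak alone and the Dlx6 peaks nested within each other.

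Dlx1 and Dlx2, which are needed together for the maturation and migration of forebrain interneurons, shared a single control peak. It lay at chromosome 2, 71365401 to 71384999, and spanned 19599 bases. The peak began 769 bases before the Dlx1 start (71366170, plus strand), ran across both gene bodies and the 9427 bases between them, and ended 188 bases beyond the Dlx2 start (71384811, minus strand). Its edges therefore sat close to the outer ends of the pair. Of its bases, 1935 were coding, 6315 were other exon sequence and 965 were intron of these genes, and 10384 (53.0%) lay outside both gene bodies. It also held the start of Dlx1as (71375948), a long non-coding RNA annotated on the strand opposite Dlx1.

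By width, this peak ranked 60th of the 821 control peaks, wider than 92.6% of them. In the EZHIP list no base of it was covered, and the nearest peak on the chromosome began 1722190 bases beyond the Dlx2 start. In the H3.3 K27M list no base was covered either, and the nearest peak began 1725190 bases beyond that start. Of the 524 control peaks absent from both other lists, it was the 5th widest.

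Dlx6 and Dlx5, which act together in the lower jaw, the limb and bone, did not share a peak. The control peak lay at chromosome 6, 6805801 to 6824599, and spanned 18799 bases. It began 7533 bases before the Dlx6 start (6813334, plus strand), covered the whole Dlx6 body of 5235 bases, and ended in the span between the genes, of which it covered 6031 of 9236 bases (65.3%). Outside the Dlx6 body lay 72.2% of the peak.

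The H3.3 K27M peak at Dlx6 ran from 6807801 to 6822999 and spanned 15199 bases, 0.809 times the width of the control peak. The EZHIP peak ran from 6810401 to 6819399 and spanned 8999 bases, 0.479 times that width. Both kept the entire Dlx6 body. Relative to the control, the H3.3 K27M peak was shorter by 2000 bases on the upstream side of Dlx6 and by 1600 bases on the side toward Dlx5, and the EZHIP peak by 4600 and 5200 bases. The shortening was thus of similar size on both sides of the gene. The EZHIP peak lay within the H3.3 K27M peak and this within the control peak. Of the 152 control peaks that overlapped EZHIP and H3.3 K27M peaks, 88 (57.9%) showed that order of nesting.

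In the span between the genes, 65.3% of the bases were covered in the control, 48% in the H3.3 K27M list and 9.0% in the EZHIP list. The start of Dlx6os1 (6819533), a non-coding RNA also known as Evf2 that runs antisense across Dlx6, lay inside the control and H3.3 K27M peaks and 134 bases outside the EZHIP peak. Peak edges are set in bins of 200 bases, which is more than this distance.

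Dlx5 was the member without a peak. Its start (6832085, minus strand) lay 7486 bases from the nearest edge of the control peak, 9086 bases from that of the H3.3 K27M peak and 12686 bases from that of the EZHIP peak, and no base of its 4281-base body was covered in any list. The control distance is the nearest outside the 5000 bases of the rule, and the other 5 genes had their control peak at a distance of 0. With 10000 bases allowed, Dlx5 was counted in the control list and with H3.3 K27M through the peak at Dlx6, and the counts became 6, 3 and 1.

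Dlx3 and Dlx4 had separate control peaks, with none of the 15159 bases between the genes covered in any list. Dlx3, which is needed for tooth, hair and placenta, had the narrowest, at chromosome 11, 94980601 to 94982999. It spanned 2399 bases, from 802 bases before the Dlx3 start (94981403, plus strand) to 1596 bases after it, and covered 30.7% of the gene body. It ranked 516th of 821 by width. Neither transduced line had a peak at Dlx3. The nearest H3.3 K27M peak was the one at Dlx4, 24398 bases from the Dlx3 start, and the nearest EZHIP peak was 703998 bases away and 399 bases wide.

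The Dlx4 control peak lay at chromosome 11, 95003001 to 95014199, and spanned 11199 bases, with 6622 bases before the Dlx4 start (95007577, minus strand) and 4576 bases after it. The H3.3 K27M peak there ran from 95005801 to 95011599 and spanned 5799 bases, 0.518 times the control width. It was shorter by 2800 bases on the low and 2600 bases on the high side of the coordinates, and still covered the 2000 bases centred on the Dlx4 start. The share of the Dlx4 body covered was 78.8% in the control, 30.6% in the H3.3 K27M list and 0% in the EZHIP list, whose nearest peak was 677824 bases from the start. The start of A730090H04Rik (95006367), a long non-coding RNA on the opposite strand, lay inside both peaks at Dlx4.

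**Figure D2:**
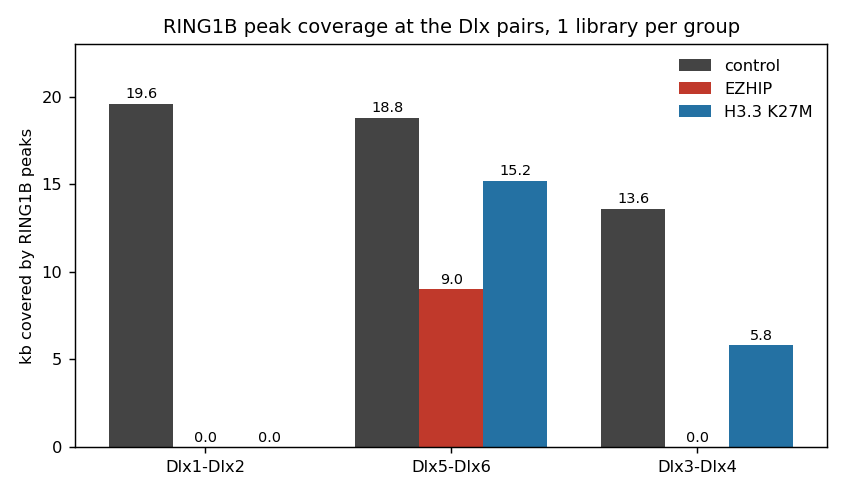
Bases covered by RING1B peaks (kb, vertical axis) in the window from 50 kb before to 50 kb after each Dlx pair, with a bar per peak list and a single library behind each bar. At the Dlx5-Dlx6 pair the bars fall from control to H3.3 K27M to EZHIP, at the Dlx3-Dlx4 pair EZHIP is at 0, and at the Dlx1-Dlx2 pair both transduced lines are at 0.

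Counted over windows reaching 50000 bases beyond each pair, peaks covered 51996 bases at the 3 pairs in the control, 20998 bases in the H3.3 K27M list and 8999 bases in the EZHIP list. Relative to the control, this was 0.404 times for H3.3 K27M and 0.173 times for EZHIP, where the whole lists stood at 0.418 and 0.329 times. By pair, the control covered 19599 bases at Dlx1-Dlx2, 18799 bases at Dlx5-Dlx6 and 13598 bases at Dlx3-Dlx4. The H3.3 K27M list covered 0, 15199 and 5799 bases in that order, and the EZHIP list 0, 8999 and 0 bases. In the same H3.3 K27M library, the 3 pairs thus ranged from no called peak to a peak of 0.809 times the control width.

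The windows held no other peaks. The next control peak lay 959 kb below and 1720 kb above the Dlx1-Dlx2 pair, 3100 kb below and 16400 kb above the Dlx5-Dlx6 pair, and 4730 kb below and 766 kb above the Dlx3-Dlx4 pair. None of the 18 protein-coding genes that start within 250 kb of a pair had a peak in any list, which with 3.81% of protein-coding genes having one in the control is near the background. They include Metap1d, whose body ends shortly before Dlx1, Itga6, Acn9 beside Dlx5, Itga3 beside Dlx3, and Col1a1, the fibroblast collagen gene, whose start is 184 kb from Dlx3.

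Control peaks of the width found at Dlx1-Dlx2, Dlx6 and Dlx4 mostly had a counterpart. Among all control peaks, 27% (95% Wilson interval 24.1 to 30.2%) shared a base with an EZHIP peak and 27.6% (24.7 to 30.8%) with a peak of the H3.3 K27M list. Of the 4 Dlx control peaks, 1 and 2 did so. When 50% of the control peak had to be covered, the shares were 9.62% and 16.8%, and the Dlx peaks numbered 0 and 2. Among the 159 control peaks of 10000 bases or more, 73.6% (66.2 to 79.8%) had an EZHIP peak and 83% (76.4 to 88.1%) one of H3.3 K27M. Of the 3 Dlx peaks in this class, 1 and 2 did so. With neither were 18 of the 159 (11.3%), the Dlx1-Dlx2 peak among them. The Dlx3 peak fell in the class of 2000 to under 5000 bases, where 15.8% (12.1 to 20.4%) had an EZHIP and 11.7% (8.48 to 15.9%) an H3.3 K27M peak. The 4 Dlx peaks are too few to set their shares apart from these.

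In the class of 10000 bases or more, the median share of the control peak covered was 39.9% by EZHIP and 68.7% by H3.3 K27M peaks, among those with an overlap. The Dlx6 peak had 47.9% and 80.9% covered, and the Dlx4 peak had 51.8% covered by H3.3 K27M. At Dlx6 both values were above the class median, and at Dlx4 the value was below it.

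**Figure D3:**
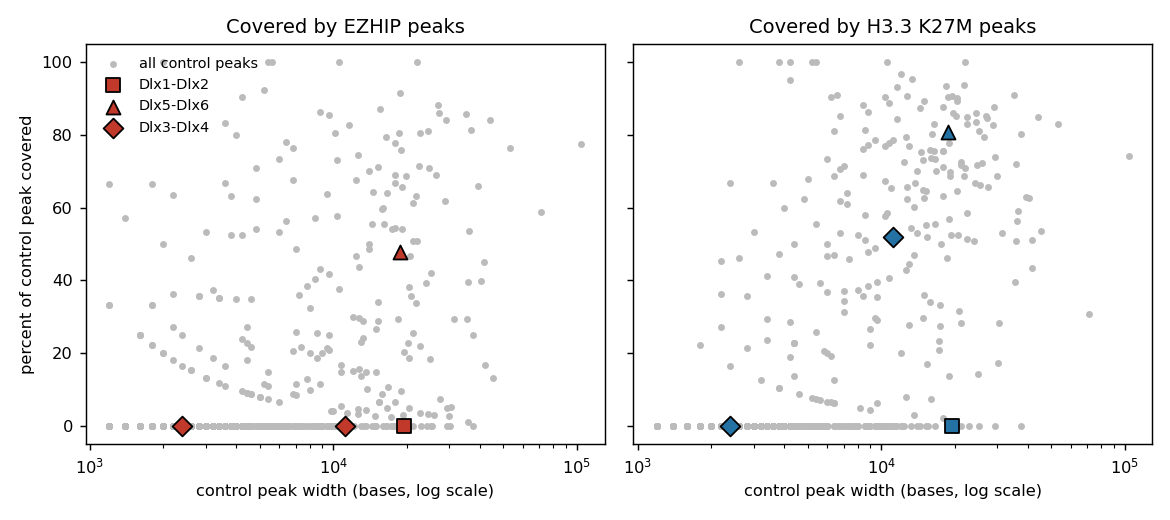
Percent of each control peak covered by EZHIP peaks (left) and H3.3 K27M peaks (right) on the vertical axis, against control peak width in bases on a logarithmic horizontal axis, with each grey point a control peak and the Dlx peaks marked by pair. The Dlx1-Dlx2 peak of 19599 bases lies at 0% in both panels, at a width where most control peaks were covered in part, and the Dlx6 peak lies at 47.9% and 80.9%.

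CpG-rich sequence is where Polycomb complexes are best known to gather, so the sequence under the peaks was compared. A window of 500 bases was taken as CpG-island-like when its GC content reached 55% and its CpG count reached 0.65 times that expected from its base content. Within 10000 bases of the Dlx1-Dlx2 pair there were 5 such islands with 6500 bases, and 95.4% of those bases lay under the control peak and none under the other lists. The largest, 3200 bases at 71382101 to 71385300, covered the Dlx2 start. The annotated Dlx1 start lay 831 bases before its nearest island. The start that RefSeq gives for Dlx1, matched by its 300-base sequence in NCBIM37 to 71367502, lay inside that island, and its window held 27 CG where the window at the GENCODE start held 3.

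The Dlx5-Dlx6 pair had 3 islands with 2800 bases. The island at the Dlx6 start, 1000 bases at 6813201 to 6814200, was covered in full in every list. The 2 islands at Dlx5, 700 bases within the gene and 1100 bases over its start, were covered in none. Presence of an island over the start therefore did not separate Dlx6 from Dlx5.

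The Dlx3-Dlx4 pair had 3 islands with 4700 bases, of which 93.6% lay under control peaks. The island over the Dlx4 start, 1800 bases at 95006201 to 95008000, was the single island covered in the H3.3 K27M list. The island inside the Dlx4 body, 700 bases and 2677 bases from the start, was covered in the control and not in the H3.3 K27M list. The island of 2200 bases over the Dlx3 start had 86.3% of its bases in the control peak and 0% in both other lists.

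The control peak that was retained in both lines was the least CpG-rich of the 4. It held 2.21 CpG per 100 bases at Dlx6 and 2.65 at Dlx4, against 4.0 at Dlx1-Dlx2 and 5.67 at Dlx3. Island-like sequence made up 5.32% of the peak at Dlx6, 22.3% at Dlx4, 31.6% at Dlx1-Dlx2 and 79.2% at Dlx3. A looser definition of islands, in windows of 200 bases, raised the Dlx6 value to 17.5%, and Dlx6 remained the lowest. Over the whole lists, the bases of control peaks without an EZHIP peak held 4.25 CpG per 100 bases, and those of control peaks without an H3.3 K27M peak held 4.48. In control peaks with an overlap, the covered bases held 3.05 for EZHIP and 3.18 for H3.3 K27M. These pooled values mix control peaks of different widths.

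Within the 159 control peaks of 10000 bases or more, the median was 2.73 CpG per 100 bases (quartiles 2.24 and 3.14) for the 108 retained in both lines and 3.06 (quartiles 2.44 and 3.32) for the 18 retained in neither. These ranges overlap. The Dlx1-Dlx2 peak held more CpG than 92.5% of the 159 peaks, and the Dlx6 peak more than 20.8%.

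**Figure D4:**
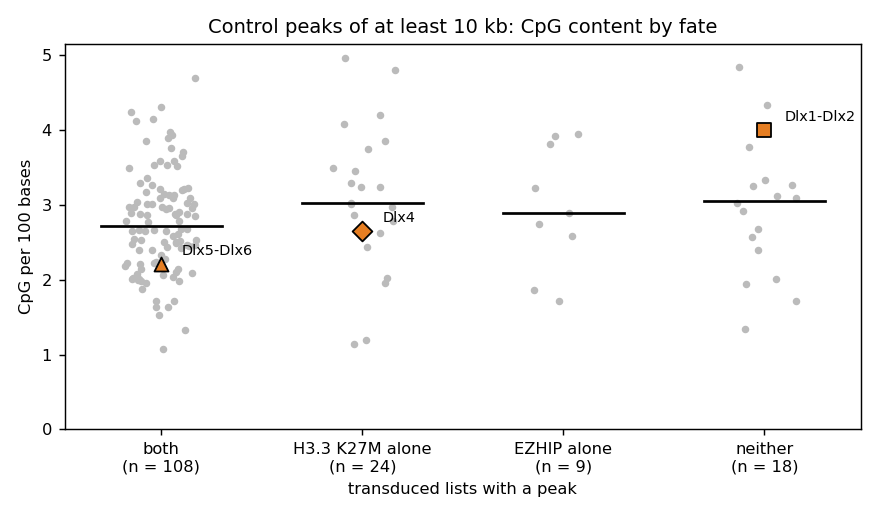
CpG per 100 bases (vertical axis) of the 159 control peaks of at least 10 kb, grouped by the transduced lists with a peak at the same place, with grey points for peaks, black lines for medians and orange marks for the Dlx peaks. The groups overlap widely, and the Dlx1-Dlx2 peak at 4.0 lies near the top of the group with no counterpart, while the Dlx6 peak at 2.21 lies below the median of 2.73 of its group.

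Inside the retained peaks, the covered part was compared with the part that was not covered. At Dlx6, the bases under the EZHIP peak held 2.73 CpG per 100 bases and the other bases of the control peak 1.73. For the H3.3 K27M peak the order was the opposite, with 2.18 in the covered part and 2.36 outside it, although the uncovered part was only 3600 bases. At Dlx4, the part under the H3.3 K27M peak held 2.97 and the rest 2.31. Repeated sequence was rare in the Dlx peaks, with 0 to 3.45% of sampled 32-base words found elsewhere in the genome.

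Genes that act with Dlx factors were described by the same rule, on a list that joins arch patterning, forebrain GABA neuron, and bone and ectoderm genes. Of these 30 genes, 19 had a peak in the control, 12 in the H3.3 K27M list and 7 in the EZHIP list, beside the 3.81%, 1.21% and 1.32% of all protein-coding genes. In all 3 lists were 7, and in the control alone 7. The list was assembled from developmental regulators, which are common Polycomb targets, so these counts say nothing particular to Dlx partners. The order of the lists, with control above H3.3 K27M above EZHIP, was that of the Dlx genes.

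Of the 15 arch patterning genes, 10 had a control peak, 5 an H3.3 K27M peak and 4 an EZHIP peak. Barx1 and Nkx3-2, homeobox genes of teeth and jaw joint, had control peaks of 16799 and 16599 bases, H3.3 K27M peaks of 11799 and 12199 bases, and EZHIP peaks of 1799 and 799 bases that missed the gene start. Pou3f3 had peaks of 13999, 7399 and 6799 bases and Gbx2 of 12999, 3599 and 1799 bases in the same order. Msx1, which acts in the same mesenchyme as the Dlx genes, had a peak of 11599 bases in the control and of 11999 bases with H3.3 K27M, without an EZHIP peak, as Dlx4 did. Hand2 and Hand1, which act downstream of Dlx5 and Dlx6 in the lower jaw, had control peaks alone, with 6798 bases over 2 peaks at Hand1 and a single peak at Hand2, and neither gene start lay inside a peak.

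Of the 9 forebrain genes, 8 had a control peak, 7 an H3.3 K27M peak and 3 an EZHIP peak. Gsx2, which acts upstream of Dlx1 and Dlx2, had 19399, 10199 and 599 bases in the control, H3.3 K27M and EZHIP lists, and Lhx8 had 8799, 6799 and 3799 bases. A control and an H3.3 K27M peak without an EZHIP peak were found at Gad2 with 7199 and 4599 bases and at Gsx1 with 5999 and 2199 bases. Gad1, a GABA-synthesizing enzyme, had 9799 bases in the control alone. Of the 6 bone and ectoderm genes, 1 had a control peak and none had a peak in the other lists.

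**Figure D5:**
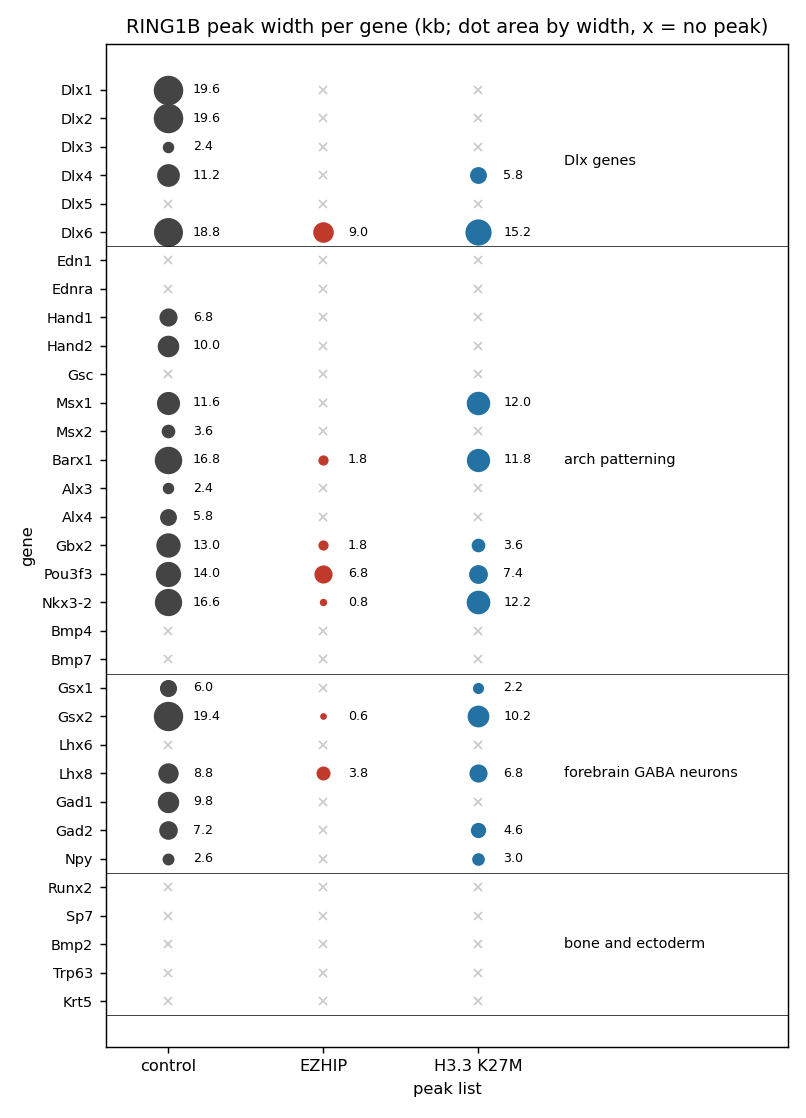
Width of the RING1B peak at each gene (kb, printed beside each dot, with dot area by width and crosses for no peak) in the control, EZHIP and H3.3 K27M lists, with genes on the vertical axis in 4 groups. Among the Dlx genes the dots number 5, 1 and 2 in the order of the lists, and among the 27 other genes drawn 16, 6 and 10.

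Another homeobox family that lies in clusters, the Irx genes, gave 4 of 6 genes with a control peak, 3 with an H3.3 K27M peak and none with an EZHIP peak, against 5, 2 and 1 of the Dlx genes. The H3.3 K27M peaks were 8799 bases wide at Irx4, 799 at Irx3 and 399 at Irx5, and none held the gene start, where both Dlx peaks of that list did. With 6 genes in each family, the difference between them was not tested. Of 10 fibroblast genes, Pdgfra had a control peak of 5399 bases and an EZHIP peak of 599 bases, and the other 9, among them Col1a1, Col3a1, Vim and Prrx1, had none in any list. That is close to the 3.81%, 1.32% and 1.21% of all protein-coding genes with a peak, and peak lists hold no expression, so the labelled cell type could not be checked.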

How the data were processed

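The authors aligned ChIP-Seq reads to mm9 and to a spike-in genome with Bowtie (version 1.0.0 in the submitters' processing notes) and called broad RING1B peaks per library with MOSAiCS-HMM. The EZHIP and H3.3 K27M lists hold peaks narrower than the minimum size that the methods state, so it is uncertain whether the stated settings made these lists. The deposited files hold the chromosome, start and end of each peak, with no read counts, signal or scores. All 1418 starts were multiples of 200 bases, the bin of the caller. Width is end minus start, and printed positions are 1-based. Groups came from the labelled cell type.

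Peaks were assigned to genes of GENCODE vM1 in Python 3.11.15 (numpy 2.4.6, pandas 2.3.3, scipy 1.17.1, numba 0.67.0, matplotlib 3.10.9). No peak ran past the end of its chromosome in NCBIM37, which mm9 is made from. CpG-island-like windows moved in steps of 100 bases and gave 18335 islands. Repeats were 32-base words, sampled every 50 bases, that occur more than once in the genome. On simulated peaks placed at 200 of 22350 genes, all 200 genes were found. Intervals are 95% Wilson and cover counting error only.

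All 6 Dlx genes, the non-coding genes at the pairs, and, of the neighbours and the genes that act with Dlx, the 15 with the widest control peaks were taken, of which 12 are named. The other 3 and a start sequence are not reported here. Further genes, among them Irx and fibroblast genes and neighbours without a peak, were chosen after their values were seen. For symbols annotated more than once, the longest entry was used. Members and lists were chosen with earlier results of these data known, and the comparison of wide control peaks was added after the data were seen. Alternatives concerned minimum width, equal peak numbers, distance, windows, merging, the end coordinate, island definition, overlap and gene set.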

Additional observations from a re-analysis of the deposited data

How the results depend on the processing

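Across 13 alternatives, the 39 values were computed another 136 times. Of these, 123 stayed within 1.5 times the reported count, length or percentage, or for shares of genes or peaks within its 95% interval, 13 moved beyond it and none changed direction. With the same number of widest peaks (286) in every list, the Dlx3 control peak was left out and the control count fell from 5 to 4 genes. The start of any transcript, an alternative chosen after seeing the data, changed no count. Covered bases at the pairs moved under no alternative beyond that limit, but the windows held no other peaks, so their size could change nothing. Some other alternatives were bound to leave the Dlx values nearly unchanged. No Dlx peak was narrower than 2399 bases, so a 1000-base minimum removed none. Each gene with a peak had its start inside it, so the gene body alone or 1000 bases from the start gave the same count. Merging joined no peaks at the pairs, and the end coordinate added a single base to each. The 123 thus include values that could not have moved.

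For protein-coding genes only, the share of genes with a peak was 3.81% in the control, 1.32% in the EZHIP and 1.21% in the H3.3 K27M list. When 50% of the control peak had to be covered, 9.62% of control peaks were kept with EZHIP and 16.8% with H3.3 K27M, and the Dlx6 peak no longer counted with EZHIP, which left 0 of 4. With peaks of at least 1000 bases, 18.6% and 23.8% of control peaks were kept, and no Dlx count changed. A looser island definition gave 24.4% island-like sequence in the part of the Dlx6 control peak kept with EZHIP and 11.2% in the other part, 17.8% and 16.6% for H3.3 K27M, and 24.1% in the part of the Dlx4 peak outside the H3.3 K27M peak. It also shortens the window, and island-like sequence fell from 79.2% to 70.8% in the Dlx3 peak and from 31% to 25.8% in the part of the Dlx4 peak kept with H3.3 K27M. The cause was not tested.

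No paired analysis was possible because each group has 1 library. The lists carry no depth, so a missing peak does not show that RING1B was absent.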
